A study of Mus musculus with 6 samples.

Results

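NMDA receptors are ligand-gated ion channels that open when glutamate and a co-agonist, glycine or D-serine, are both bound and when the membrane is depolarised, and they pass calcium into the postsynaptic neuron. Each receptor is a tetramer that holds obligatory GluN1 subunits, which bind the co-agonist, together with GluN2 subunits, which bind glutamate, or with GluN3 subunits, which bind glycine. The GluN2 subunit sets how long the channel stays open, how strongly magnesium blocks it and which proteins it binds inside the cell, and calcium entry through these receptors is known for its part in synaptic plasticity and memory. The 7 mouse genes that encode the subunits, Grin1, Grin2a, Grin2b, Grin2c, Grin2d, Grin3a and Grin3b, were taken by their Ensembl identifiers from the 60354 features of the count tables. All 7 were found once in every table, and all 7 passed the filter on low counts.

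The data are whole-brain RNA-seq of 6 male C57BL/6NCrSlc mice from a feeding study. From 16 weeks of age, the PLDP mice were given for 16 weeks a modified AIN-93M diet in which 20% was PLDP, a porcine liver product broken down with protease. The control mice were given a modified AIN-93M diet of matched caloric content over the same 16 weeks, and both groups then went through the same behavioural tests, during which PLDP was not fed. RNA was taken on the day after the last test, from control mice 2, 5 and 10 and from PLDP mice 17, 22 and 26. Each library is 1 brain, so the samples are separate animals, but every mouse had been through behavioural testing and no untested brain was sequenced.

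Total counts per mouse ranged from 18797061 to 23938729, and 20476 to 26515 of them fell on the 7 subunit genes. Of 60354 features, 18580 were tested, and 1598 of these, 8.6%, had an unadjusted p under 0.05 in edgeR's quasi-likelihood test. Of those, 913 (4.91% of the features tested) were higher and 685 (3.69%) lower in PLDP mice, whereas 6 features, 0.0323%, had a Benjamini-Hochberg adjusted p under 0.05. PLDP mouse 17 stood apart from the other PLDP mice: its counts differed from those of mice 22 and 26 with chi-square values of 5.33 and 5.03 per degree of freedom, against 2.36 to 3.12 for the other pairs of mice on 1 diet. Values without it are given beside the results that it moved most. The neuronal identity of the tissue was plain from Snap25, a presynaptic membrane fusion protein, which was at 1832 to 1917 CPM in the 6 mice.

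The subunits are closely alike in the third membrane segment, which lines the pore and moves when the channel opens. A stretch of 45 coding bases from this segment is shown for a GluN1, a GluN2 and both GluN3 genes because it shows how far the members are alike in a conserved part, with capitals at the 20 positions that are identical in all 7 genes:
Grin1: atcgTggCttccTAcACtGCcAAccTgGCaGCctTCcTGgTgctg
Grin2c: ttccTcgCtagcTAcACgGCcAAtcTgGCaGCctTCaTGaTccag
Grin3a: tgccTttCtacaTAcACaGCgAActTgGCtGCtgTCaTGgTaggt
Grin3b: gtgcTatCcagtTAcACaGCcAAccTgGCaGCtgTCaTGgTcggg
In GRCm38 with the GENCODE annotation, each of these stretches lies within 1 coding exon. The positions are Grin1 chr2:25297190-25297234, minus strand, exon 14, and Grin2c chr11:115253740-115253784, minus strand, exon 9. The GluN3 stretches are Grin3a chr4:49770461-49770505, minus strand, exon 3, and Grin3b chr10:79974627-79974671, plus strand, exon 3. Between 27 and 34 of the 45 bases in the other members match Grin1. Between the principal transcripts of any pair of members the longest run of identical bases was 34, for Grin2b and Grin2c. The sequenced reads have 150 bases, and no 150-base window of the annotated transcripts of a member occurred in another member. No full-length read from these transcripts thus matches 2 members exactly.

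The genes differ widely in size. Grin1 (ENSMUSG00000026959) lies at chr2:25291181-25319187 with 20 coding exons in its principal transcript. Grin2a (ENSMUSG00000059003) lies at chr16:9567898-9995560 and Grin2b (ENSMUSG00000030209) at chr6:135713233-136173511. Grin2c (ENSMUSG00000020734) is at chr11:115249169-115267243 and Grin2d (ENSMUSG00000002771) at chr7:45831883-45878378. Grin3a (ENSMUSG00000039579) is at chr4:49661611-49845744 and Grin3b (ENSMUSG00000035745) at chr10:79970715-79977190. All are on the minus strand except Grin3b. The longest annotated transcript is 24060 bases for Grin2b and 14634 for Grin2a, against 3283 to 7491 for the others, and this difference matters below because it enters every comparison of levels between the genes.

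Some reads cannot be assigned with certainty. Of the 150-base windows of Grin2a exons, 9.85% also occur in the processed pseudogene Gm7328, which was listed with 141 to 212 counts, against 2652 to 3276 for Grin2a. The 3' part of Grin3b overlaps Tmem259 on the other strand over 8.32% of its windows, and Tmem259 had 2169 to 2697 counts. The antisense gene Gm45441 overlaps 3.08% of Grin2d windows and had 76 to 108 counts. The library kit keeps the strand, but whether the counting used it is not given in the sources used here.

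All 7 subunit genes were detected in every mouse, and on the exon scale the order of their mean levels was the same in both diets. On this TPM scale, in which counts per kilobase of annotated exon are scaled to a fixed sum over all genes, Grin1, the obligatory subunit, was highest at 152 ± 4.30 (SD, n = 6). Grin2c, whose product is best known from cerebellar granule cells, followed at 90.9 ± 7.07 TPM. Grin2b, the GluN2 gene prominent in the forebrain from early development on, was at 23.7 ± 2.39 TPM, and Grin2a, which becomes prominent as the forebrain matures, was at 22.1 ± 0.985 TPM. Grin2d, known from brainstem, midbrain and interneurons, was at 14.4 ± 0.996 TPM. Grin3a, the GluN3 gene that is highest in the young brain, was at 10.3 ± 0.394 TPM. Grin3b, described mainly in motor neurons, was lowest at 1.29 ± 0.392 TPM. Neighbours in this order kept it in 6 of 6 mice at 5 of the 6 places, each with a two-sided exact sign-flip permutation p of 0.0312, the smallest that 6 mice allow, and 0.0375 after Benjamini-Hochberg adjustment over the 6 places. The exception was Grin2b over Grin2a, which held in 5 of 6 mice with an exact permutation p of 0.125, so these neighbours did not differ beyond their spread.

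The level that a subunit appears to have depended on the length by which its counts were divided. In the control mice Grin2c made up 61.1% ± 1.77 (SD, n = 3) of the 4 GluN2 genes per kilobase of all annotated exons, Grin2b 14.95% ± 1.24, Grin2a 14.7% ± 0.443 and Grin2d 9.27% ± 0.700. Per kilobase of coding sequence, Grin2b made up 34.5% ± 2.02 and Grin2c 34.3% ± 1.82 in the same mice. On that scale Grin2b came second to Grin1, and Grin2b over Grin2c held in 4 of 6 mice, with an exact permutation p of 0.312. With the longest annotated transcript as the length, Grin2a was above Grin2b in 6 of 6 mice, and the mean of Grin3a was above that of Grin2d in control mice (14.2 and 13.96 TPM) and below it in PLDP mice (13.7 and 15.3 TPM). Thus Grin1 was first and Grin3b last on each of the 3 length scales, while the places of Grin2a, Grin2b, Grin2c and of Grin2d and Grin3a were set by the choice of length.

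**Figure D1:**
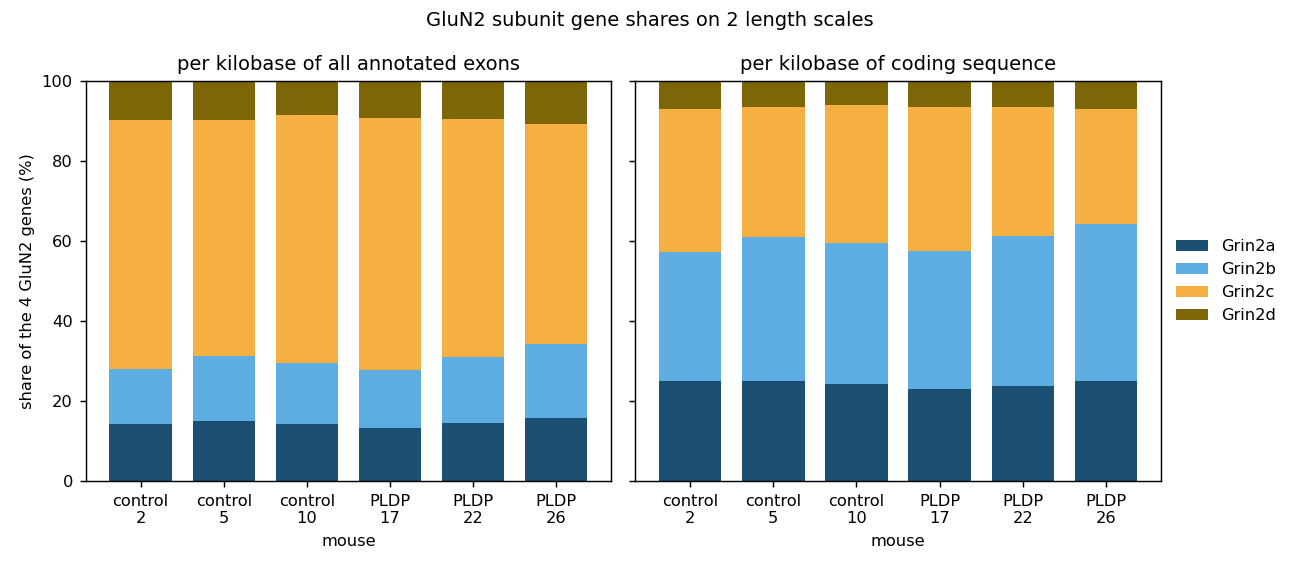
Share of each GluN2 gene in the summed level of the 4 GluN2 genes (percent, y axis) in each mouse (x axis), with counts divided by the length of all annotated exons (left) or of the coding sequence (right). The stacked segments are the 4 genes; Grin2c takes 55.1% to 62.8% on the left and 28.7% to 36.0% on the right, and the mice of both diets overlap on both scales.

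Grin2b was the one subunit gene called, higher in PLDP mice at an unadjusted p below 0.05. Its CPM, the count scaled to the library total with TMM factors, were 176, 192 and 195 in control mice 2, 5 and 10, and 195, 219 and 226 in PLDP mice 17, 22 and 26. PLDP mouse 17 lay just below control mouse 10, so the groups overlapped at that 1 point, and control mouse 2 was the lowest of all. The mean rose from 187.6 ± 10.2 CPM (SD, n = 3) to 213.3 ± 16.6 CPM, a log2 fold change of 0.18 with a standard error of 0.05 and a 95% confidence interval of 0.07 to 0.30. Its unadjusted p was 0.00326 and its adjusted p over all 18580 features was 0.306 in edgeR's quasi-likelihood test. The two-sided exact permutation p for its level was 0.2, in CPM and in TPM on the exon scale. That 1 of 7 members was called higher stands against 4.91% of all features called higher. GluN2B carries a long intracellular tail that binds CaMKII and the scaffold proteins of the postsynaptic density.

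The Grin2b difference was present whichever mouse was left out, but its size changed. Without PLDP mouse 17 the log2 fold change was 0.25 with an unadjusted p of 1.4e-05 and an adjusted p of 0.00697, and the groups no longer overlapped. Without control mouse 2, the log2 fold change was 0.14 with an unadjusted p of 0.0352 and an adjusted p of 0.821. It lay between 0.14 and 0.25 over the 6 fits that each left out 1 mouse, and the unadjusted p was below 0.05 in each.

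Transcript length was read beside the Grin2b difference. Features whose longest annotated transcript exceeds 10 kb numbered 401, of which 34, or 8.48%, were called higher and 3, or 0.748%, were called lower, beside 4.91% and 3.69% over all features. Their median level, centred over the 6 mice, was −0.08 on the log2 scale in PLDP mouse 17, 0.08 in PLDP mouse 22 and 0.05 in PLDP mouse 26. The control mice ranged from −0.04 to 0.02. PLDP mouse 17, the lowest PLDP mouse for Grin2b, was thus lowest of all mice for long transcripts, and the other PLDP mice were highest for both. The lower mice did not keep the same order. PLDP mouse 17 was above control mice 2 and 5 for Grin2b. Control mouse 2, lowest of all for Grin2b, was at −0.0148 for long transcripts, above control mouse 5 at −0.0399. After a correction for transcript length and GC content, made after the data had been seen, the Grin2b log2 fold change was 0.11, with an unadjusted p of 0.0132 and an adjusted p of 0.355. Corrected for transcript length alone it was 0.10, with an unadjusted p of 0.0210. The part that length or base composition has in the difference was not otherwise tested.

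**Figure D2:**
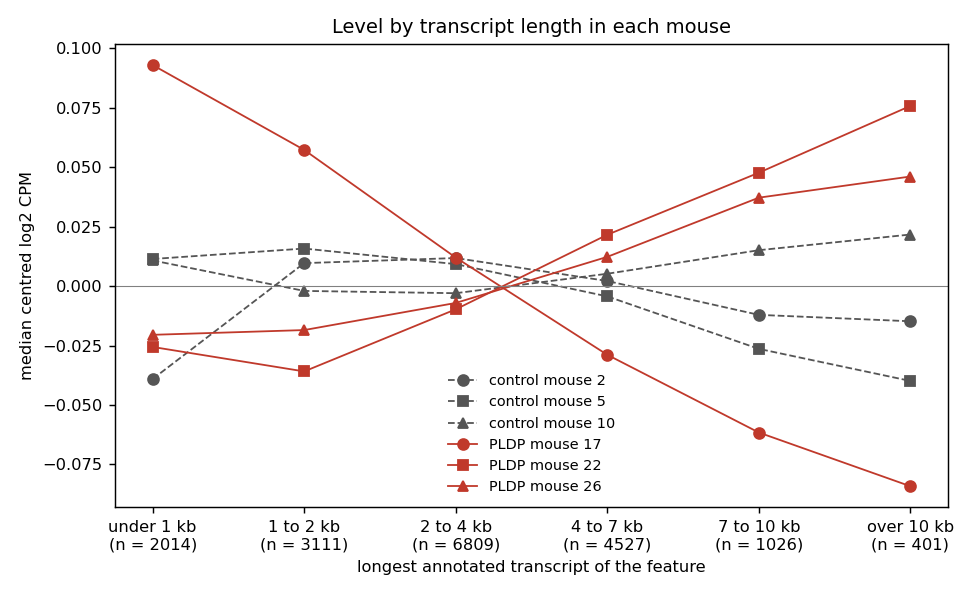
Median level of the features in 6 classes of transcript length (x axis, with the number of features) in each mouse, as log2 CPM centred on the mean of the 6 mice (y axis). Each line is a mouse; PLDP mouse 17 falls from 0.09 for the shortest class to −0.08 for the longest, whereas PLDP mice 22 and 26 rise to 0.08 and 0.05.

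The other GluN2 genes were not called, and each followed its own pattern over the mice. Grin2a was at 135, 131 and 133 CPM in the control mice and at 128, 137 and 142 CPM in PLDP mice 17, 22 and 26. PLDP mouse 17 was the lowest and PLDP mouse 26 the highest of the 6, so the PLDP mice spanned the controls. The log2 fold change was 0.03 with a 95% confidence interval of −0.07 to 0.12 (adjusted p = 0.907). Without PLDP mouse 17 it was 0.07, with an unadjusted p of 0.0992, and the remaining PLDP mice were above all controls. Within each mouse, the ratio of Grin2b to Grin2a counts was 1.31, 1.46 and 1.46 in the controls and 1.52, 1.597 and 1.595 in the PLDP mice, without overlap. That ratio needs no library scaling, and its two-sided exact permutation p was 0.1, the smallest that 3 mice against 3 allow. Against the geometric mean of the other 5 abundant members, Grin2b was higher by 0.15 on the log2 scale in PLDP mice, with overlapping groups and an exact permutation p of 0.3.

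Grin2c varied more between mice than between diets. It was at 164, 143 and 161 CPM in control mice 2, 5 and 10 and at 170, 159 and 138 CPM in PLDP mice 17, 22 and 26. The lowest values of each diet, in control mouse 5 and PLDP mouse 26, were close to each other and apart from the rest. The log2 fold change was 0.00 on rounding, with a 95% confidence interval of −0.14 to 0.13 (adjusted p = 0.997), and −0.07 without PLDP mouse 17. The summed level of 10 markers of cerebellar granule cells, such as Cbln3, a secreted synapse organiser, and Gabra6, a GABA-A receptor subunit, was 1204, 1036 and 1222 CPM in the controls and 1220, 1203 and 1041 CPM in the PLDP mice. Control mouse 5 and PLDP mouse 26 were thus lowest for this sum too. They were not the lowest pair for Etv1, or for Cbln1, Zic2 and Barhl1, named after their values were seen. Of the 10 markers 1, Etv1, was called, with a log2 fold change of 0.11, beside 8.6% of all features called in either direction. Grin2c per 100 CPM of these markers, a ratio taken after the values were seen, ranged only from 13.2 to 13.9, with a coefficient of variation of 2.51% over the 6 mice against 7.97% for Grin2c itself. In a whole-brain sample, fewer cells of a type and less RNA per cell cannot be told apart, and the amount of cerebellum in each sample is not given in the labels.

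**Figure D3:**
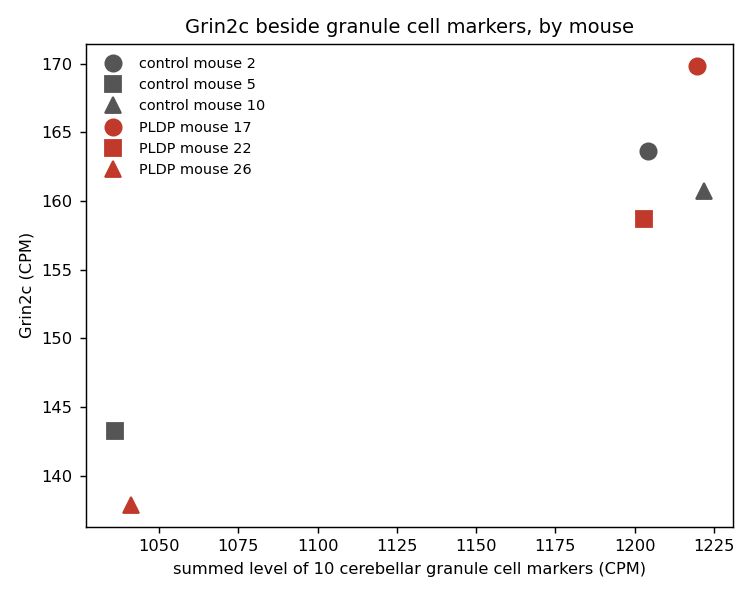
Grin2c level (CPM, y axis) against the summed level of 10 cerebellar granule cell markers (CPM, x axis), 1 point per mouse, circles, squares and triangles telling mice of 1 diet apart. Control mouse 5 and PLDP mouse 26 lie together at the lower left, and the other 4 mice, 2 of each diet, at the upper right.

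Grin2d was at 33.4, 31.1 and 29.1 CPM in the controls and at 33.1, 33.5 and 35.4 CPM in the PLDP mice. Control mouse 2 lay among the PLDP mice and the other controls below them. The log2 fold change was 0.12 with a standard error of 0.07 and a 95% confidence interval of −0.01 to 0.26, with an unadjusted p of 0.0771 and an adjusted p of 0.628. Without control mouse 2 it was 0.17 with an unadjusted p of 0.0318, so 1 library decided on which side of 0.05 this gene fell.

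Markers of the brainstem and spinal cord, where Grin2d is also expressed, were read beside it. Of 9 tested, 8 were called lower and none higher, against 3.69% and 4.91% of all features. The median log2 fold change was −0.81, and the summed level of the list was 143 to 157 CPM in control mice and 77.1 to 113 CPM in PLDP mice. The count was 5 without control mouse 2 and 4 without PLDP mouse 22. Glra1, a glycine receptor subunit, was lower by a log2 fold change of −0.50, and Slc6a5, the neuronal glycine transporter, by −0.66. None of the marker genes was at 0 counts over the 6 mice. Grin2d CPM per 100 CPM of these markers, a ratio taken after the values were seen, was 20.3 to 21.6 in controls and 29.3 to 43.4 in PLDP mice. Grin2d itself was not called, and the marker sum that divides it was lower in PLDP mice. The part of this shift in the values of the subunit genes was not tested.

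Grin1 was at 501, 493 and 483 CPM in the controls and at 510, 519 and 509 CPM in the PLDP mice. All PLDP mice lay above all controls, which was so for 7.29% of all features tested, and the reverse held for 6.9%. The difference did not pass the test, with a log2 fold change of 0.06, a 95% confidence interval of −0.02 to 0.13 and an adjusted p of 0.678. Grin1 per unit of summed GluN2 level was 1.004 ± 0.0468 (SD, n = 3) in control mice and 1.015 ± 0.0387 in PLDP mice, with an exact permutation p of 0.7.

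The GluN3 genes were not called. Grin3a was at 43.8, 44.9 and 43.1 CPM in the controls and at 40.4, 43.2 and 42.8 CPM in the PLDP mice, with PLDP mouse 22 just above control mouse 10. Its log2 fold change was −0.06 with a 95% confidence interval of −0.18 to 0.05 (adjusted p = 0.807), and −0.03 without PLDP mouse 17. As a share of all 7 genes on the exon scale, Grin3a was 3.30%, 3.54% and 3.34% in control mice and 2.99%, 3.19% and 3.28% in PLDP mice. The groups did not overlap for this share on any of the 3 length scales or in plain counts, and the exact permutation p was 0.1, the smallest possible. Over the 11 shares compared on the exon scale its Benjamini-Hochberg value was 0.856. The difference in means was −0.241 percentage points, and −0.158 without PLDP mouse 17.

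Grin3b rested on few reads, with 43, 35 and 19 counts in the controls and 39, 25 and 23 in the PLDP mice. Its log2 fold change was −0.17 with a standard error of 0.30 and a 95% confidence interval of −0.79 to 0.46 (adjusted p = 0.923), so a change as large as that of any other member was not detectable at this depth. Without PLDP mouse 17 the log2 fold change was −0.43, with an unadjusted p of 0.197. Motor neuron markers, the cell type in which Grin3b is best described, were tested for 8 genes, of which 3 were called lower and none higher, beside 3.69% and 4.91% of all features. Their median log2 fold change was −0.25, and 1 of the 8 was above 0. Those called were Slc5a7, the choline transporter of cholinergic terminals, Prph, an intermediate filament of neurons that project to the periphery, and Calca, a neuropeptide gene, which is named here after its value was seen. The summed level of the list was 35.6 to 42.3 CPM in controls and 27.2 to 33.5 CPM in PLDP mice. The Grin3b values overlapped between the diets. So did Grin3b per 100 CPM of these markers, a ratio taken after the values were seen, at 2.59 to 4.89 in controls and 3.67 to 5.64 in PLDP mice.

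**Figure D4:**
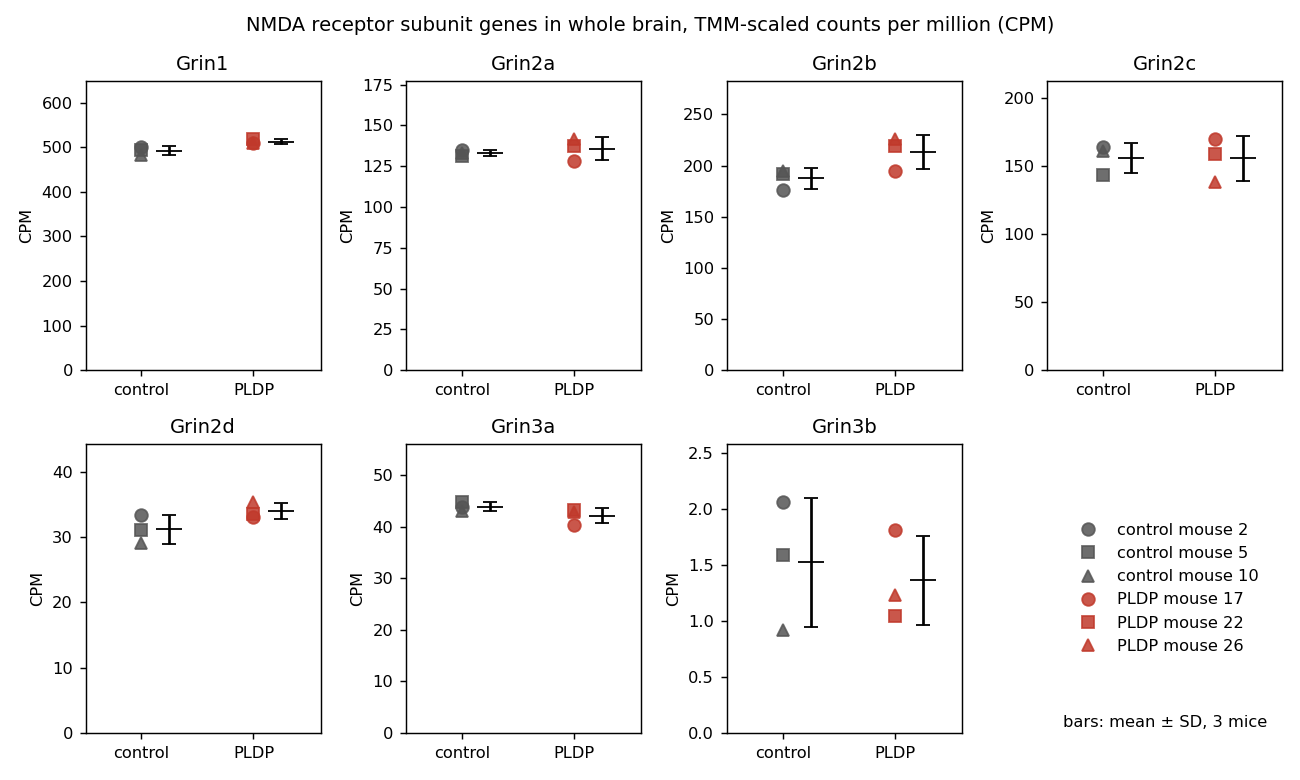
Level of each NMDA receptor subunit gene (TMM-scaled CPM, y axes from 0) in the 3 control and 3 PLDP mice (x axes), 1 panel per gene, with the mean and SD of each diet beside the points. The groups are apart only for Grin1, and for Grin2b they touch at PLDP mouse 17 and control mouse 10.

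**Figure D5:**
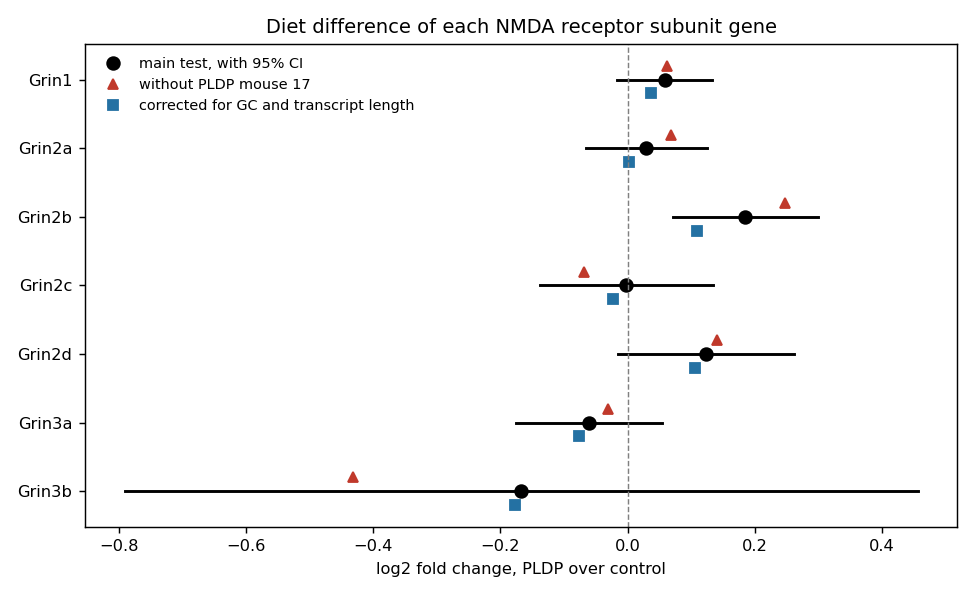
Log2 fold change of PLDP over control mice (x axis) for each subunit gene (y axis). Black circles and lines are the estimate from all 6 mice and its 95% confidence interval, triangles the fit without PLDP mouse 17, and squares the fit corrected for GC content and transcript length; the Grin2b interval, 0.07 to 0.30, is the one that does not reach 0.

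Summed over the 7 genes, the level was 317, 300 and 313 TPM in the controls and 319, 328 and 314 TPM in the PLDP mice, with an exact permutation p of 0.2. PLDP mouse 26 fell within the control range. With the longest annotated transcript as the length, the sum was 418 to 436 TPM in controls and 438 to 453 TPM in PLDP mice, and in CPM it was 1037 to 1055 and 1078 to 1112. On both of these scales the diets did not overlap, each with an exact permutation p of 0.1. The Grin2b share of the GluN2 genes on the exon scale was 13.6%, 16.0% and 15.2% in controls and 14.6%, 16.7% and 18.3% in PLDP mice. The means differed by 1.57 percentage points, the groups overlapped, and the exact permutation p was 0.4. The difference was 2.53 percentage points without PLDP mouse 17, 0.886 without control mouse 2 and 0.667 without PLDP mouse 26. Of the shares and sums on the exon scale, the Grin3a share was the one in which the diets did not overlap.

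The AMPA receptor genes, whose products carry most fast excitatory current, were not called. Their log2 fold changes were 0.02 for Gria1, 0.04 for Gria2, 0.06 for Gria3 and 0.01 for Gria4. Of the 5 kainate receptor genes, Grik5, a high-affinity kainate subunit, was called higher, at 200, 192 and 184 CPM in control mice and 219, 203 and 201 CPM in PLDP mice (log2 fold change 0.11, adjusted p = 0.492). These counts, 0 of 4 and 1 of 5, stand beside 4.91% of all features called higher and 3.69% called lower. The median log2 fold change was 0.03 for the NMDA receptor genes, 0.03 for the AMPA and 0.02 for the kainate receptor genes, and 0.00 over all features tested. Whether Grin2b differed from the members of these families was not tested.

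Genes that hold NMDA receptors in the postsynaptic density included several that rose. Of 24 scaffold and trafficking partners tested, 7 were called higher and none lower, beside 4.91% and 3.69% of all features, and the median log2 fold change was 0.07. Shank1, a master scaffold of the density, was at 425, 424 and 434 CPM in control mice and 451, 509 and 526 CPM in PLDP mice (log2 fold change 0.21, adjusted p = 0.147). Shank2, its close relative, rose by 0.21 (adjusted p = 0.261). For both genes all PLDP mice were above all controls, and PLDP mouse 17 was again the lowest of the PLDP mice. Also called, and named after their values were seen, were Dlg4, which encodes PSD-95, Dlgap3, Dlgap4 and Homer1, with log2 fold changes of 0.11 to 0.20. Over all alternatives 6 to 9 of the scaffold genes were called higher. The count was 9 without PLDP mouse 17, with upper-quartile factors, with no filter and with the transcript length correction alone. It was 8 with voom and with the GC and length correction, and 6 with DESeq2 or without control mouse 2, PLDP mouse 22 or PLDP mouse 26. Calls over all features moved as well. Those called higher were 1293 of 18848 without PLDP mouse 17, 640 of 19030 without control mouse 2 and 913 of 18580 in the main fit.

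Signalling genes coupled to the receptor were called in both directions. Of 23 kinases, phosphatases and calcium effectors tested, 4 were called higher and 1 lower, beside 4.91% and 3.69% of all features, with a median log2 fold change of 0.04. Camk2a, the kinase that binds the GluN2B tail, was at 1555, 1552 and 1566 CPM in controls and 1615, 1716 and 1687 CPM in PLDP mice (log2 fold change 0.10, adjusted p = 0.350). Ptk2b, a calcium-activated tyrosine kinase, rose by 0.11 (adjusted p = 0.450). Also called, and named after their values were seen, were Nos1, higher by 0.11, and Calm2, which fell by 0.09 on the log2 scale. None of the genes called in this list passed adjustment over all features.

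Genes that handle the receptor's ligands were read in the same way. Among 17 genes of co-agonist supply and removal, none was called higher and 2 were called lower, beside 4.91% and 3.69% of all features, with a median log2 fold change of −0.03. Slc6a5 was at 49.4, 44.0 and 42.1 CPM in control mice and 31.0, 22.4 and 32.7 CPM in PLDP mice, the one gene of all these lists with an adjusted p below 0.05 (0.0369), and it is also 1 of the brainstem and spinal markers above. Without control mouse 5 the features with an adjusted p below 0.05 numbered 0, so leaving out that library ended the adjusted call of Slc6a5. Slc1a5, a neutral amino acid transporter, was lower by a log2 fold change of −0.36 (adjusted p = 0.477). Srr, which makes D-serine, and Slc6a9, the glial glycine transporter, were not called. None of 11 genes of glutamate supply and clearance was called.

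Markers of other brain cells were read beside these results. Of 10 forebrain projection neuron markers, 3 were called higher and none lower, beside 4.91% and 3.69% of all features, and their summed level was 430 to 449 CPM in controls and 451 to 466 CPM in PLDP mice. Fezf2 and Bcl11b, factors of deep-layer cortical neurons, rose by 0.22 and 0.16, and Cux2, an upper-layer factor named after its value was seen, by 0.14. Grin2b per 100 CPM of this list, a ratio taken after the values were seen, was 39.2, 43.1 and 45.4 in control mice and 43.2, 48.7 and 48.5 in PLDP mice. Its exact permutation p was 0.2. No interneuron or striatal projection neuron marker was called of 10 each, and 1 of 9 pan-neuronal markers, Nefl, was lower, while 5 of the 9 log2 fold changes were above 0. Of 10 markers of each of the following kinds, 2 were called lower for astrocytes (Fgfr3 and Aqp4), 3 for oligodendrocytes and their precursors (Mbp and Olig2 among them), 2 for the choroid plexus (Ttr and Folr1) and 1 for microglia (P2ry12), and none of these was called higher. For astrocytes 4 of the 10 log2 fold changes were above 0, and the summed level was 3953 to 4045 CPM in controls and 3941 to 4054 CPM in PLDP mice. Of the thalamus and midbrain markers 1 of 10, Pou4f1, was called lower, while 6 of the 10 log2 fold changes were above 0 and their median was 0.02. Of the endothelial and blood markers Pecam1 and Flt1 were called higher, while 3 of the 10 log2 fold changes were above 0 and their median was −0.06. The part of these markers in the subunit values was not tested.

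The genes whose course over the 6 mice was most like that of each member were found by the root mean square difference of centred log2 CPM among 14512 genes, 2 for each member. Grin2b was closest to Rnf169 and Neil2, at 0.0250 and 0.0265, against a median of 0.153 over all genes compared. Grin1 was closest to Syt13 and Zmiz2, at 0.00588 and 0.00941. For Grin2a they were Lonrf2 and Cux1, for Grin2c Pus10 and Gfer, and for Grin2d Fkbpl and Tcerg1l. Grin3a was closest to Wwc2 and Tppp, and Grin3b to Dnajc19-ps and Pdzd3, the latter at 0.0791 and 0.119. No member of the family was among the 2 genes closest to another.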

How the data were processed

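Whole-brain poly(A) RNA of 6 mice was sequenced as 150-base read pairs from a stranded kit. The submitters' processing notes name cutadapt 2.9, HISAT2 2.2.0, featureCounts 2.6.0 and DESeq2 1.6.3 with the builds GRCm38 and GRCh38. The roles of these, the gene annotation and the strand setting of the counting are not given in the sources used here. The authors deposited 1 table of raw counts per mouse, with no normalization. The 7 members were matched by Ensembl identifier to GENCODE M21, which holds 54777 of the 55034 Ensembl identifiers (the other 5320 features are numbered and have none), and the reference sequences come from that release.

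Counts of all features were filtered with filterByExpr (minimum count 10, total 15), scaled by TMM (factors 0.997 to 1.01) and tested with edgeR 4.0.16 (glmQLFit, glmQLFTest) in R 4.3.3, 3 PLDP against 3 control mice. Calls rest on an unadjusted p below 0.05, the study's own threshold, with Benjamini-Hochberg values over all 18580 features tested beside it. TPM was computed from the counts and the exon length of each gene, and shares, ratios and sums were compared by two-sided exact permutation tests over mice. A script applied to simulated counts checked the test before use.

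Alternatives were scaling by library size alone, by upper-quartile or by relative log expression factors, no filter, at least 10 counts in every mouse, DESeq2 1.42.0, limma 3.58.1 (voom), the likelihood ratio test, other lengths, and leaving out each mouse. GC content and transcript length corrections (splines of 5 degrees of freedom per library, as offsets) and the coding length were added after the data had been seen. The members and the gene lists were chosen with earlier results of these data known. Named were all members, the up to 3 called genes of smallest p in each pathway list or family, the most abundant and up to 2 called genes of smallest p in each marker list (uncalled ones are printed only where a result turns on them), and the 2 genes closest to each member. All AMPA receptor genes, Srr, Slc6a9, Gabra6 and the genes so marked in the text were named outside this rule, after their values were seen. p-values measure the spread between 3 mice of each diet. Sequencing depth limits Grin3b, with 19 to 43 counts per mouse. Some genes and sequences that these rules select are not reported here.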

Additional observations from a re-analysis of the deposited data

How the results depend on the processing

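Grin2b was called in all 16 alternatives, with log2 fold changes of 0.10 to 0.19 under other scalings, filters, tools and corrections and 0.14 to 0.25 without 1 mouse, and with adjusted p of 0.00697 to 0.821. The adjusted p was under 0.05 in 2 of them, without PLDP mouse 17 and with no filter on low counts (0.0159). Without 1 mouse, the log2 fold change was 0.04 to 0.07 for Grin1, −0.00271 to 0.0683 for Grin2a, −0.0685 to 0.0746 for Grin2c, 0.0738 to 0.174 for Grin2d, −0.08 to −0.03 for Grin3a and −0.43 to 0.11 for Grin3b. Grin2d was called only without control mouse 2, which made 1 to 2 members called over these fits. Among the uncalled genes the sign turned for Grin2a with the transcript length correction (−0.0124) and without PLDP mouse 26, for Grin2c with upper-quartile factors (0.00411) and with the length correction (0.00128), and for Grin2c and Grin3b when 1 mouse was left out. The features called higher numbered 555 with DESeq2. Those called lower numbered 383 with DESeq2 and 1046 with no filter, where 36099 features were tested. Without 1 mouse, 640 to 1293 were called higher and 493 to 1072 lower, the highest of both without PLDP mouse 17. Features with an adjusted p under 0.05 numbered 0 to 182 without 1 mouse and 1 to 180 otherwise. The causes were not tested. The differences between the diets in the GluN2 shares, the Grin3a share and the summed level were compared with the spread between mice. Under other lengths or scalings they moved by less than that spread. Leaving out 1 of 3 mice cannot move a difference of means by that much, so those fits do not test it. In them the Grin2c share difference ranged from −3.857 to 0.01093 percentage points, against −2.002 with all mice. That of Grin2a ranged from −0.7846 to 0.4989, against −0.114. The log2 ratio of the summed level was 0.02489 to 0.06424, against 0.04841. The shares themselves and the order of the levels depended on the length used. The number of neighbours in that order that kept it in every mouse was 5 or 6 of 6. No paired analysis was possible because the diets share no mouse numbers.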
